A study of Mus musculus with 2 samples.

Results

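The 10 genes described here make up the MHC class I presentation pathway, and they were followed in bone marrow cells of a mouse model of severe aplastic anemia (SAA). They were taken by symbol, 1 row each, from the 31053 genes of the count tables, and comprise the classical heavy chains *H2-K1* and *H2-D1*, the light chain *B2m*, the nonclassical heavy chains *H2-T23* and *H2-Q7*, the peptide transport and loading genes *Tap1*, *Tap2*, *Tapbp* and *Erap1*, and the transactivator *Nlrc5*. In the radiation control (RC) group, hybrid F1 mice of C57BL/6 and Balb/c parentage received 300 rads alone. SAA mice of the same cross received 300 rads and then 65000000 splenocytes of C57BL/6 donors. Live (7-AAD-) CD11b+Ly6C+Ly6G- cells, a gate for monocytes, were sorted from bone marrow, cells of 3 mice were pooled in each group, and 1 library was made from each pool. Each group thus had 1 library and no replicate, and the values allow no test between the groups. All intervals in parentheses are 95% intervals that cover counting error only. The comparison asked how far the sorted cells of RC and SAA mice differed in the RNA of each step of the pathway.

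MHC class I molecules show peptides from inside the cell to CD8+ T cells. The proteasome cuts proteins to peptides, TAP1 and TAP2 pump these into the endoplasmic reticulum, ERAP1 trims them there, and tapasin, encoded by *Tapbp*, holds an empty heavy chain beside TAP until a peptide fits. A heavy chain reaches the cell surface with β2-microglobulin, its shared light chain. Classical molecules (K and D) show a broad range of peptides to T cell receptors, whereas the nonclassical molecule Qa-1, encoded by *H2-T23*, mainly shows leader peptides of other class I chains to NK cell receptors, and Qa-2 is encoded by *H2-Q7* and close relatives. Most class I genes respond to interferons, and NLRC5 acts on their promoters together with factors bound to an X box and a CCAAT box.

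Of the 10 genes, 7 lie on mouse chromosome 17 (build GRCm38, the build of the files). *Tapbp* occupies 33915899 to 33929292, *H2-K1* 33996017 to 34000347, *Tap1* 34187553 to 34197225, *Tap2* 34203527 to 34216321, *H2-D1* 35262730 to 35267499, *H2-Q7* 35439155 to 35443773 and *H2-T23* 36029773 to 36032855. *B2m* is on chromosome 2 (122147686 to 122153083), *Nlrc5* on chromosome 8 (94434356 to 94527272) and *Erap1* on chromosome 13 (74639568 to 74693201). All are protein-coding genes. Reads were aligned to the C57BL/6 reference, which holds H-2b alleles, whereas the F1 mice also carry the H-2d alleles of Balb/c and its additional H2-L gene. How reads of H-2d alleles were assigned, or whether some were lost, cannot be seen from the counts. SAA mice also received H-2b donor cells, so the levels and shares of *H2-K1*, *H2-D1* and *H2-Q7* may carry differences in allele content between the libraries, which was not tested. UMIs of donor and host cells cannot be told apart either, and *H2-Q7* can share reads with its close copies, *H2-Q6* among them.

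Promoters of 8 of the 10 genes were found in RefSeq (GRCm38.p6), and the 200 bases before the start site are shown for both classical chains, *H2-Q7* and *B2m*, because these 4 genes carry the results on heavy and light chain RNA. Capitals mark the enhancer A sequence GGGGATTCCCC, the interferon response element AGTTTCACTT of class I promoters, the interferon-stimulated response element (GAAA, NN, GAAA, where NN are any bases), the X2-type site TGACG and the CCAAT box (ATTGG on the other strand). The stretches are chr17:34000348-34000547 on the minus strand for *H2-K1*, chr17:35262894-35263093 on the plus strand for *H2-D1*, chr17:35438955-35439154 on the plus strand for *H2-Q7* and chr2:122147487-122147686 on the plus strand for *B2m*. For *H2-D1* the RefSeq start site lies inside the gene span given above, which begins further upstream, so the stretch shown also lies inside that span.
H2-K1: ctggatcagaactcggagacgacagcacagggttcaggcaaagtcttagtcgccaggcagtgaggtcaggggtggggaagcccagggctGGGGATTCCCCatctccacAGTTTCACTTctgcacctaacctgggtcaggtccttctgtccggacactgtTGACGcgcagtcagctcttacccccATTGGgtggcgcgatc
H2-D1: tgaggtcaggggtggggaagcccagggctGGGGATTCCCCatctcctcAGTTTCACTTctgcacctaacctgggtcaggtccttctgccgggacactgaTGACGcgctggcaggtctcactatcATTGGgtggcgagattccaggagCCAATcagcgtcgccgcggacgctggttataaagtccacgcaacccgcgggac
H2-Q7: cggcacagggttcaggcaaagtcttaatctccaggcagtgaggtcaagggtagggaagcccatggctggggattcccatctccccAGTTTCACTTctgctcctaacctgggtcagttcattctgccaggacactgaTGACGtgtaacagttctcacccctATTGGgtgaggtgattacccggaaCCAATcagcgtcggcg
B2m: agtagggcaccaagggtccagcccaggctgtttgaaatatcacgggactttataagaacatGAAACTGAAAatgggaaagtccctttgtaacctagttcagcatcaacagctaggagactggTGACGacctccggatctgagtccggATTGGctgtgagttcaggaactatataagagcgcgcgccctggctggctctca

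The *H2-K1* and *H2-D1* stretches were 90.7% identical over 140 aligned bases. Enhancer A, a site known to be bound by NF-κB proteins, was found in *H2-K1* and *H2-D1* and in 0.0304% of all 32851 RefSeq promoters of 300 bases, searched on both strands. The class I interferon response element was found in *H2-K1*, *H2-D1* and *H2-Q7* and in 0.14% of all promoters. The interferon-stimulated response element was found in *B2m*, *H2-T23* and *Erap1* and in 3.44% of promoters. TGACG was present in 5 of the 8 genes (20.8% of promoters) and CCAAT in 7 of 8 (37.4%). The pathway genes were counted per gene, with a match in any of their promoters, whereas these shares are per promoter. Per gene the 5 shares, in the order given, were 0.0333%, 0.167%, 3.99%, 23% and 41.1% of 27025 genes. Enhancer A and the class I element were read from the *H2-K1* promoter, the motifs were chosen with the sequences in view, and a match describes letters and not a bound site. No base belongs to more than 1 motif in the stretches shown.

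The RC library held 798 barcodes and 4066589 unique molecular identifiers (UMIs, each standing for 1 captured transcript), and the SAA library 825 barcodes and 5592265 UMIs. Barcodes with at least 1000 detected genes (662 and 729) were split by summed marker UMIs. Those with more of *Csf1r*, *Ccr2*, *F13a1*, *Ms4a6c* and *Ly86* than of 8 granule and granulocyte genes were called monocyte-like (342 RC and 285 SAA barcodes), and those with more of the latter granulocyte-like (318 and 421). The median barcode held 3347.5 UMIs in RC and 6082 in SAA among monocyte-like, and 6787.5 and 6849 among granulocyte-like barcodes. *Ly6g* RNA was counted mainly in granulocyte-like barcodes, with 340 and 444 UMIs against 0 and 8 in monocyte-like barcodes, and the surface Ly6G protein used by the gate was not measured here. T cell receptor genes (*Cd3e*, *Cd3g*, *Trac*, *Trbc1*, *Trbc2*) were at 0 in both RC classes and at 47.3 and 60.0 CPM (UMIs of a gene per 1000000 UMIs of the class) in monocyte-like and granulocyte-like SAA barcodes. Of the 10 genes of a T and NK cell list, 2 were detected in each RC class and 10 of 10 in each SAA class, at 3.68 against 143 CPM in monocyte-like and 409.7 against 358 CPM in granulocyte-like barcodes, where *Nkg7* made up most of the RC value. The libraries shared 1 barcode sequence.

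All 10 genes were higher in SAA than in RC in both classes. In monocyte-like barcodes 10 of 10 were at least 2-fold higher, against 7.80% of the 8662 genes with at least 20 UMIs. In granulocyte-like barcodes 10 of 10 were at least 2-fold higher, against 6.63% of 8812 genes. The median log2 ratio of the 10 genes was 1.63 and 2.49, whereas over all tested genes it was -0.06 and 0.04. None of the 10 was 2-fold lower in monocyte-like (8.67% of genes) or granulocyte-like barcodes (5.12%). The counting interval of the ratio lay above 1 for 10 of 10 genes in each class, against 16.3% of genes in the monocyte-like and 19.9% in the granulocyte-like class. Leaving out the barcodes with T cell receptor UMIs, a choice made once their counts were known, kept 10 of 10 at least 2-fold higher in each class.

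**Figure D1:**
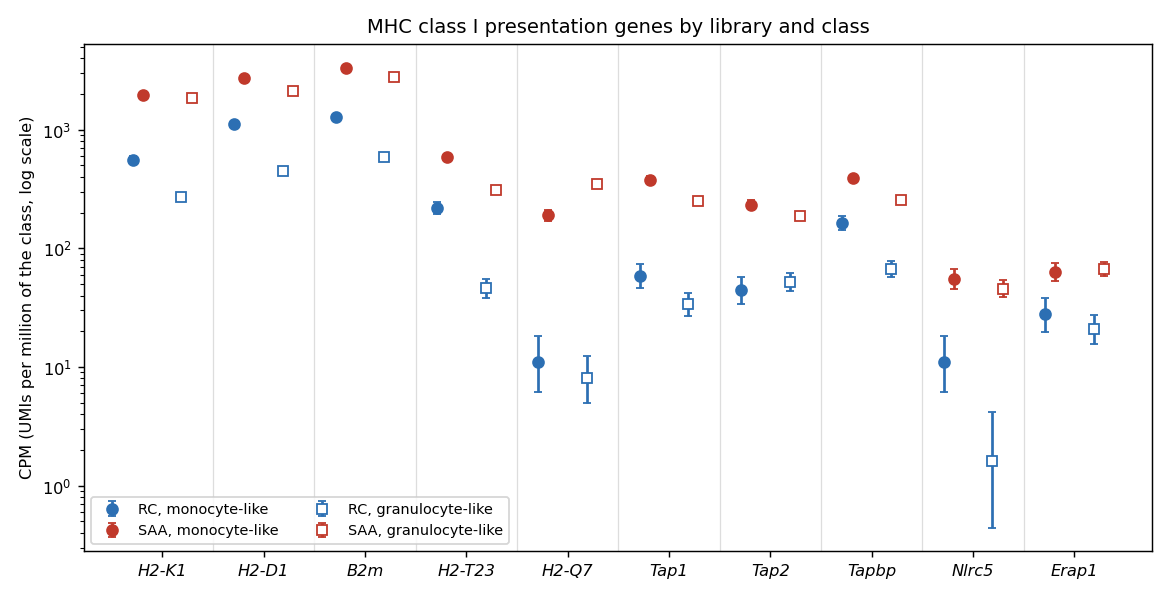
CPM (UMIs of a gene per 1000000 UMIs of the class, log scale) of the 10 genes in monocyte-like (filled circles) and granulocyte-like (open squares) barcodes of RC (blue) and SAA (red), with exact Poisson 95% intervals, which cover counting error only. The red point lies above the blue point of the same class for each gene, and the intervals of the pairs do not overlap.

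The classical heavy chains were among the most abundant RNAs of the pathway. In monocyte-like barcodes *H2-K1*, the K heavy chain, stood at 560.2 CPM (RC) against 1967 CPM (SAA), a ratio of 3.51 (3.25–3.80). In granulocyte-like barcodes *H2-K1* stood at 271 and 1866 CPM, a ratio of 6.87 (6.35–7.46). The 2 classes of SAA thus lay close together, while in RC the granulocyte-like value was the lower. *H2-D1*, the D heavy chain, stood at 1112 and 2708 CPM in monocyte-like barcodes, a ratio of 2.43 (2.30–2.58). It stood at 452 and 2130.2 CPM in granulocyte-like barcodes, a ratio of 4.71 (4.42–5.02). For both chains the intervals of RC and SAA lay apart in each class.

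*B2m*, the light chain of every class I molecule, was counted at 1284 CPM (RC) against 3301 CPM (SAA) in monocyte-like barcodes, a ratio of 2.57 (2.44–2.71). In granulocyte-like barcodes it stood at 592 and 2786 CPM, a ratio of 4.70 (4.45–4.97). These ratios lay close to those of *H2-D1* in each class.

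The nonclassical chains went apart in size. *H2-T23*, the Qa-1 heavy chain, reached 218 CPM (RC) against 592 CPM (SAA) in monocyte-like barcodes, a ratio of 2.72 (2.39–3.10). It stood at 46.0 and 308 CPM in granulocyte-like barcodes, a ratio of 6.71 (5.52–8.21). *H2-Q7*, a Qa-2 heavy chain, was scarce in RC, with 15 UMIs in all monocyte-like and 20 in all granulocyte-like barcodes. The corresponding SAA sums were 385 and 1151 UMIs. *H2-Q7* thus stood at 11.0 against 189.8 CPM in monocyte-like barcodes, a ratio of 17.2 (10.3–31.0). It stood at 8.06 against 347 CPM in granulocyte-like barcodes, a ratio of 43.0 (27.7–70.7), the largest among the 10 genes in either class. The near copy *H2-Q6*, which may exchange reads with *H2-Q7*, stood at 22.1 against 107 CPM (ratio 4.84, 3.30–7.35) in monocyte-like and 10.9 against 151 CPM (13.9, 9.40–21.2) in granulocyte-like barcodes.

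Among the transport and loading genes, both TAP subunits showed larger monocyte-like ratios than tapasin. *Tap1* reached 58.9 CPM (RC) against 376 CPM (SAA) in monocyte-like barcodes (6.39, 5.07–8.15) and at 33.9 and 250 CPM in granulocyte-like barcodes (7.38, 5.89–9.35). *Tap2* stood at 44.2 and 233 CPM in monocyte-like (5.28, 4.03–7.03) and at 52.4 and 187 CPM in granulocyte-like barcodes (3.56, 2.94–4.34). *Tap2* was the only gene of the 10 whose ratio was smaller in granulocyte-like barcodes, apart from *Tap1* under the filter at 1500 genes. The *Tapbp* RNA, whose protein bridges TAP and the empty heavy chain, stood at 163 and 390.0 CPM in monocyte-like (2.39, 2.05–2.78) and at 66.9 and 255 CPM in granulocyte-like barcodes (3.82, 3.23–4.53). *Erap1*, the trimming peptidase, stood at 28.0 and 63.6 CPM in monocyte-like (2.27, 1.57–3.36) and at 21.0 and 67.3 CPM in granulocyte-like barcodes (3.21, 2.36–4.43). *Erap1* had the smallest ratio of the 10 genes in each class.

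*Nlrc5*, which acts on class I promoters, was the least abundant gene in RC granulocyte-like barcodes, where only 4 UMIs were counted. It held 15 UMIs in RC and 112 in SAA monocyte-like barcodes, or 11.0 and 55.2 CPM, a ratio of 5.0 (2.91–9.23). In granulocyte-like barcodes it held 4 and 152 UMIs, or 1.61 and 45.8 CPM, a ratio of 28.4 (10.9–106). The interval rests on the 4 RC UMIs.

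**Figure D2:**
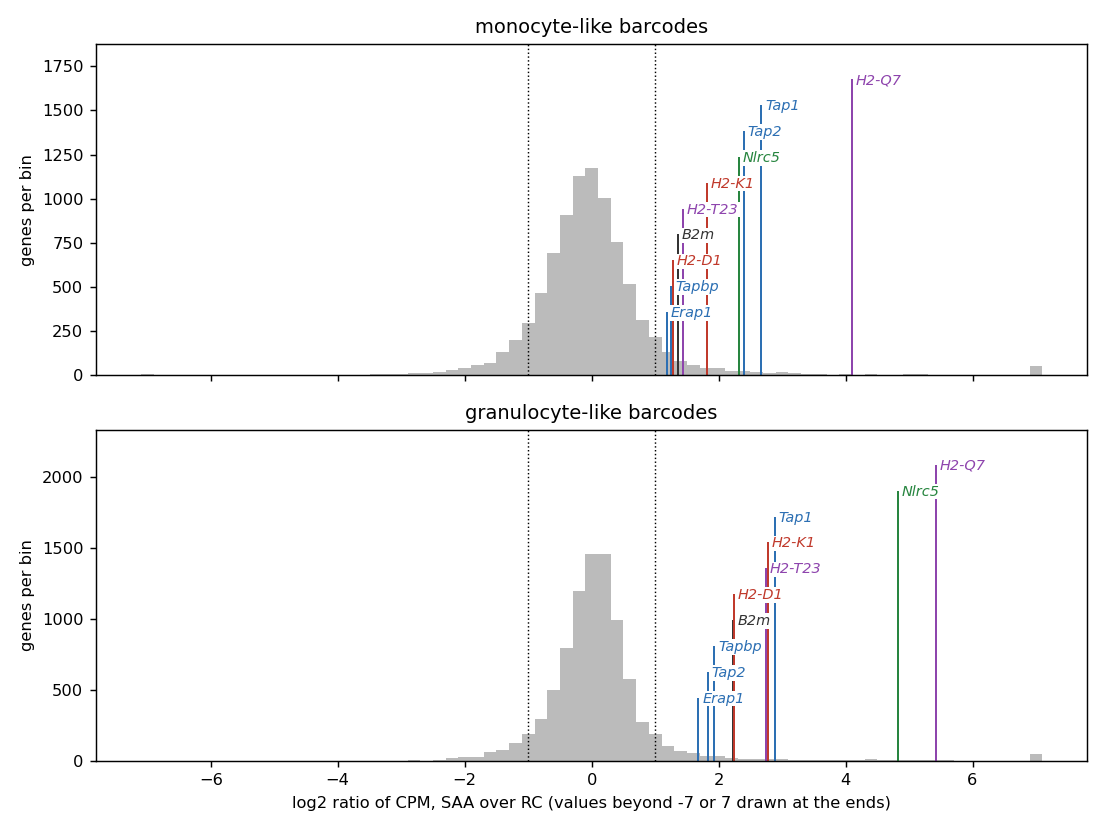
Histogram of the log2 ratio of CPM, SAA over RC, for all genes with at least 20 UMIs in the class (grey, genes per bin), with the 10 genes drawn as named lines whose heights carry no value. Dotted lines mark a 2-fold difference. All 10 lines lie to the right of the upper dotted line in both classes, and *H2-Q7* lies farthest right.

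The difference between RC and SAA was larger in granulocyte-like than in monocyte-like barcodes for most of the pathway. Dividing the granulocyte-like by the monocyte-like SAA to RC ratio gave a quotient whose interval lay above 1 for 7 of 10 genes, against 18.3% of 7969 genes, and below 1 for 1 gene, against 8.65%. The quotient was 1.96 (1.75–2.19) for *H2-K1*, 1.93 (1.78–2.11) for *H2-D1* and 1.83 (1.69–1.97) for *B2m*. It was 2.47 (1.96–3.11) for *H2-T23*, 2.50 (1.27–4.94) for *H2-Q7*, 1.6 (1.28–2.0) for *Tapbp* and 5.68 (1.84–17.6) for *Nlrc5*. The quotient of *Tap2* was 0.675 (0.486–0.937), and those of *Tap1* (1.16, 0.838–1.59) and *Erap1* (1.41, 0.881–2.26) held 1. *Tap2* depended on the processing: its quotient was 0.901 (0.622–1.30) without the barcodes that held at least 5 UMIs of the T and NK cell list and 0.765 (0.551–1.06) with each barcode weighted equally. The quotient of *H2-Q7* was 1.82 (0.924–3.6) with equal weights, and that of *Nlrc5* was 7.26 (0.874–60.3) at equal depth.

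The classes stood further apart in RC than in SAA. In RC, 6 of 10 genes were at least 2-fold lower in granulocyte-like than in monocyte-like barcodes, against 23.5% of 8695 genes, and the median ratio of the 10 was 0.473. *H2-T23* stood lowest but for *Nlrc5*, at 0.211 (0.168–0.263) of its monocyte-like level. In SAA, 0 of 10 genes were 2-fold lower, against 20% of 9084 genes, and the median ratio was 0.815. *H2-Q7* was the only gene with an SAA interval above 1, at 1.83 (1.63–2.06) times its monocyte-like level. The ratios between classes compare the same library, so they do not rest on the scaling between RC and SAA. They use the same counts as the quotients above and are not a separate result.

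The heavy chain RNA differed in makeup as well as in amount. Shares are of the summed UMIs of *H2-K1*, *H2-D1*, *H2-T23* and *H2-Q7*, counted per captured 5′ end and not per length. *H2-K1* made up 29.5% (27.7–31.3) of them in RC and 36.0% (35.1–36.9) in SAA monocyte-like barcodes, and 34.9% (32.8–37.1) and 40.1% (39.3–40.9) in granulocyte-like barcodes. *H2-D1* made up 58.5% (56.6–60.4) and 49.6% (48.7–50.6) in monocyte-like, and 58.2% (55.9–60.4) and 45.8% (45.0–46.6) in granulocyte-like barcodes. The K chain thus took a larger share and the D chain a smaller share in SAA in both classes, with intervals that lay apart. *H2-D1* UMIs per *H2-K1* UMI were 1.99 in RC and 1.38 in SAA monocyte-like, and 1.67 and 1.14 in granulocyte-like barcodes.

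The Qa-1 share of heavy chain RNA did not differ beyond counting error, while the Qa-2 share did. *H2-T23* made up 11.5% (10.3–12.8) in RC and 10.9% (10.3–11.4) in SAA monocyte-like, and 5.91% (4.90–7.06) and 6.63% (6.24–7.03) in granulocyte-like barcodes, with overlapping intervals. The total behind these shares includes *H2-Q7*. Per *H2-D1* UMI, *H2-T23* gave 0.196 (0.172–0.222) in RC and 0.219 (0.205–0.233) in SAA monocyte-like barcodes. In granulocyte-like barcodes it gave 0.102 (0.0831–0.123) and 0.145 (0.135–0.155), with intervals that lay apart. *H2-Q7* made up 0.581% (0.325–0.956) and 3.48% (3.15–3.84) in monocyte-like, and 1.04% (0.634–1.6) and 7.46% (7.05–7.89) in granulocyte-like barcodes. In SAA granulocyte-like barcodes *H2-Q7* thus stood above *H2-T23*, the reverse of the order in RC.

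**Figure D3:**
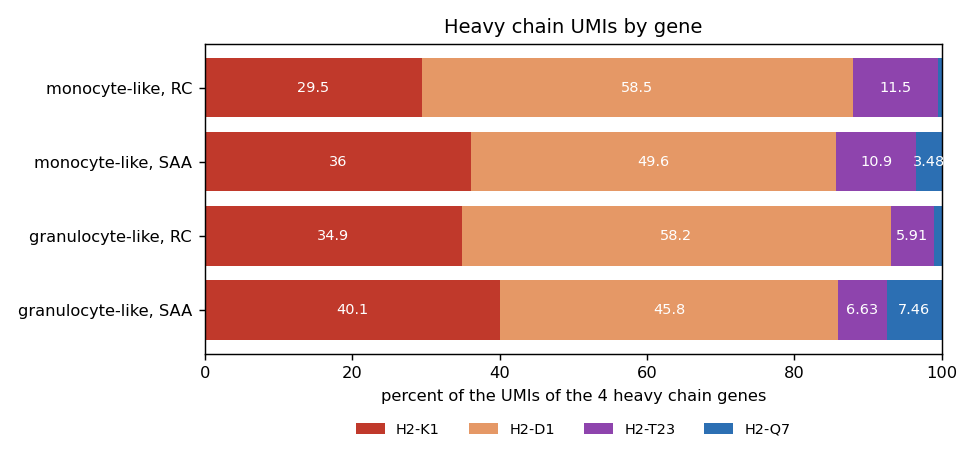
Percent of the UMIs of 4 heavy chain genes that belonged to each gene, per class and library (stacked bars, from 0 to 100%). The *H2-D1* share is 58.5% and 58.2% in RC and 49.6% and 45.8% in SAA, and the *H2-Q7* share is 0.581% and 1.04% in RC and 3.48% and 7.46% in SAA.

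Heavy and light chain RNA differed less in proportion. *H2-K1* and *H2-D1* together gave 1.30 (1.22–1.39) UMIs per *B2m* UMI in RC and 1.42 (1.37–1.46) in SAA monocyte-like barcodes, and 1.22 (1.14–1.31) and 1.43 (1.40–1.47) in granulocyte-like barcodes. The monocyte-like intervals overlapped and the granulocyte-like ones did not. The TAP subunits were less even. *Tap1* gave 1.33 (0.942–1.90) and 1.61 (1.44–1.81) UMIs per *Tap2* UMI in monocyte-like barcodes, and 0.646 (0.485–0.857) and 1.34 (1.21–1.49) in granulocyte-like barcodes, so the order of the subunits turned in the latter class.

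For the sum of the 10 genes, the difference was spread over the barcodes and did not lie in a few of them. Each barcode was thinned at random to 2600 UMIs, and shallower barcodes were left out (76 RC and 18 SAA monocyte-like, 1 and 8 granulocyte-like). At this depth the median monocyte-like barcode held 4 UMIs of *H2-K1* and *H2-D1* together in RC and 12 in SAA, and the median granulocyte-like barcode held 2 and 10. For all 10 genes together the medians were 8.5 and 26 in monocyte-like, and 4 and 21 in granulocyte-like barcodes. The sum over the 10 genes exceeded the 95th percentile of RC in 85.4% of SAA monocyte-like barcodes and in 99.3% of SAA granulocyte-like barcodes. The lowest SAA granulocyte-like barcode held 5 UMIs of the 10 genes, above the RC median.

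The share of barcodes with a UMI was higher in SAA, without overlap of the intervals, for 10 of 10 genes in each class, against 5.73% of genes in the monocyte-like and 5.22% in the granulocyte-like class. *H2-Q7* was detected in 3.76% (1.82–6.80) of monocyte-like barcodes in RC against 35.2% (29.5–41.3) in SAA, and in 1.26% (0.345–3.20) against 59.8% (54.9–64.6) of granulocyte-like barcodes. Without thinning these shares were 4.09% and 66.0%, and 5.97% and 83.8%, so a *H2-Q7* UMI was rare in RC and common in SAA at either depth. *Tap1* was detected in 16.2% (12–21.2) and 67.0% (61.0–72.6) of monocyte-like, and in 7.89% (5.17–11.4) and 50.6% (45.7–55.5) of granulocyte-like barcodes, and without thinning in 19.3% and 87.4%, and 20.4% and 78.1%. *Nlrc5* was detected in 3.01% (1.31–5.84) and 15.4% (11.3–20.2) of monocyte-like barcodes, and in 1 of 317 (0.315%, 0.00799–1.74) and 11.9% (8.91–15.4) of granulocyte-like barcodes, and without thinning in 4.39% and 29.5%, and 1.26% and 27.6%. Within SAA, the 10 genes stood in granulocyte-like barcodes at 0.521 (*H2-T23*) to 1.83 (*H2-Q7*) of their monocyte-like level. The class II gene *H2-Aa* stood at 0.0429 of its own. No cell type in these libraries is known to lack class I RNA, so the share that free RNA gives was not measured for these genes. Its part in any of these values was not tested.

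**Figure D4:**
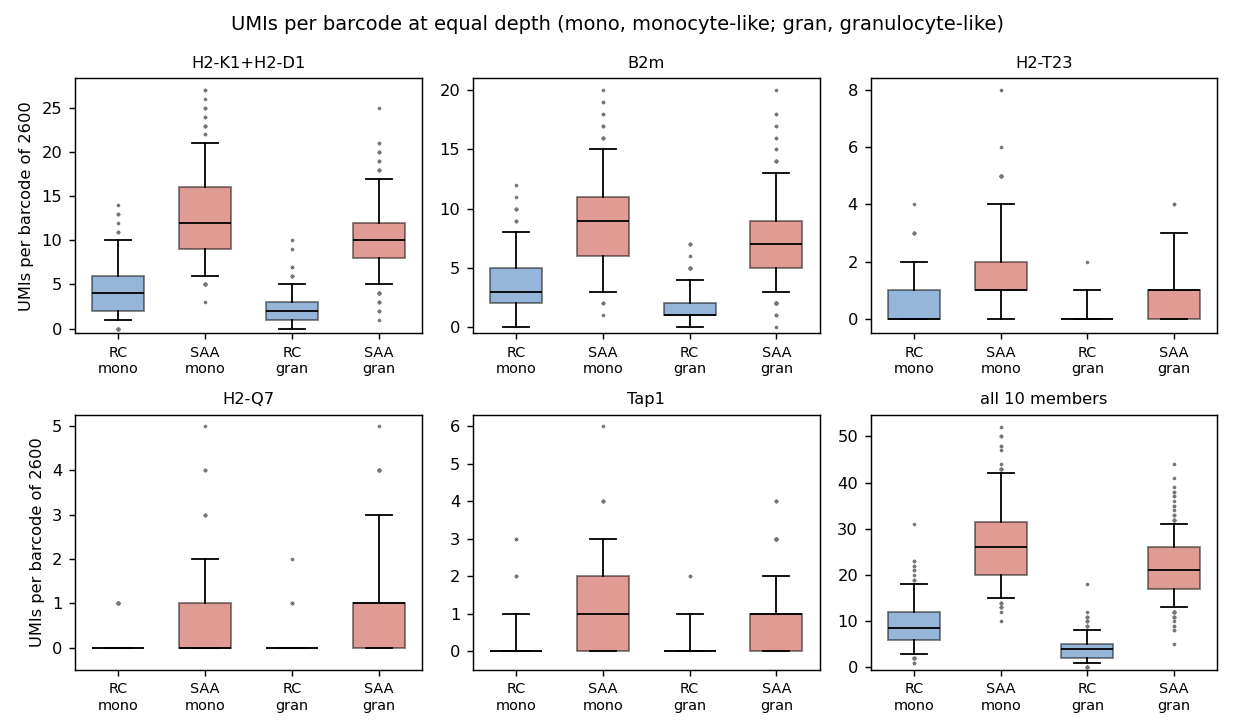
UMIs per barcode after thinning to 2600 UMIs, for *H2-K1* with *H2-D1*, *B2m*, *H2-T23*, *H2-Q7*, *Tap1* and the sum of 10 genes. Boxes span the quartiles with the median as a line, whiskers reach the 5th and 95th percentiles, and dots are barcodes beyond them. For the sum, the medians are 8.5 and 26 in monocyte-like and 4 and 21 in granulocyte-like barcodes of RC and SAA.

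Within each class the difference was present in cycling and non-cycling and in early and late barcodes. Monocyte-like barcodes with at least 3 UMIs, at equal depth, of 8 cell cycle genes were called cycling (90 RC and 132 SAA), and granulocyte-like barcodes with more *Elane*, *Mpo*, *Prtn3* and *Ctsg* than *Camp* and *Ngp* UMIs were called early (51 and 33). These are ranges of a score and not cell types. Exactly at the cycling minimum lay 2 RC and 14 SAA barcodes, and in 14 RC and 9 SAA early barcodes the smaller marker sum exceeded 20% of both sums. In cycling barcodes 10 of 10 genes were at least 2-fold higher in SAA (ratios 2.83 to 14.7; 8.64% of all genes), and in non-cycling barcodes 9 of 10 (1.69 to 15.4; 9.68% of genes), with *Erap1* the exception. In early barcodes 9 of 10 were at least 2-fold higher (1.88 to 22, against 8.80% of genes), again with *Erap1* the exception, and in late barcodes 10 of 10 (4.24 to 56.2, against 7.69%).

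In RC, late granulocyte-like barcodes held less class I RNA than early ones for 6 of 10 genes, against 31.5% of all genes. Among the 6 were *H2-K1* (0.521, 0.444–0.612), *Tapbp* (0.422, 0.307–0.583) and *Erap1* (0.324, 0.181–0.583). In SAA the interval of the late to early ratio lay below 1 for 0 of 10 genes, against 28.8% of all genes, and the ratios ran from 0.791 to 1.15. *H2-K1* stood at 429.6 CPM in early and 224 CPM in late barcodes of RC, and its SAA ratio of late to early was 0.989 (0.922–1.06). Cycling monocyte-like barcodes held less than non-cycling ones for 6 of 10 genes in RC (14.6% of all genes) and for 6 of 10 in SAA (11.5%). *H2-Q7* alone was higher in cycling barcodes of SAA, at 1.42 (1.14–1.79), while its RC ratio of 1.49 (0.454–5.22) rested on 14 UMIs.

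The other class I genes, the peptide supply and general helpers of the endoplasmic reticulum were mostly higher in SAA. The helpers differed from most of the rest in how the 2 classes compared. Of 20 further class I and class I-like symbols, 13 were in the tables and 9 had at least 20 UMIs. In each class 8 of 9 were at least 2-fold higher in SAA, against 7.80% (monocyte-like) and 6.63% (granulocyte-like) of all genes. The exceptions were *H2-T24* in monocyte-like (1.42, 0.867–2.38) and *Cd1d1*, a lipid-presenting molecule, in granulocyte-like barcodes (1.38, 0.676–2.95). *H2-T22*, a ligand of γδ T cell receptors, had ratios of 5.50 (3.90–7.97) and 11.5 (7.70–18.1) in monocyte-like and granulocyte-like barcodes. *H2-M3*, which presents formylated peptides, had ratios of 2.88 (1.92–4.44) and 25.4 (8.46–125.4), the latter on 3 RC UMIs, and *H2-Q4* of 3.71 (2.69–5.21) and 4.22 (3.30–5.44).

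All 5 genes of the immunoproteasome and its PA28 activator were at least 2-fold higher in SAA in both classes, against 7.80% and 6.63% of all genes. *Psmb9*, a catalytic subunit, had ratios of 3.99 (3.49–4.58) and 4.41 (3.91–4.99), and *Psmb8*, another, of 3.09 (2.74–3.49) and 4.19 (3.64–4.85). The PA28 genes *Psme1* (2.47 and 3.03) and *Psme2* (2.75 and 3.81) had smaller ratios. The median log2 ratio of the 5 genes was 1.61 in monocyte-like and 2.07 in granulocyte-like barcodes.

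Of 10 general folding and loading helpers, 5 were at least 2-fold higher in SAA in monocyte-like and 2 in granulocyte-like barcodes, against 7.80% and 6.63% of all genes, with median log2 ratios of 1.14 and 0.50. The interval of the ratio lay above 1 for 10 of 10 helpers in monocyte-like and 9 of 10 in granulocyte-like barcodes. Over all genes these shares were 16.3% and 19.9%. The quotient of the granulocyte-like and the monocyte-like ratio had an interval below 1 for 7 of these 10 genes and above 1 for 0, against 8.65% and 18.3% of all genes. *Pdia3*, the disulfide isomerase of the loading complex, had ratios of 2.76 (2.43–3.14) in monocyte-like and 1.55 (1.40–1.72) in granulocyte-like barcodes. *Hspa5*, the chaperone BiP, had ratios of 3.74 (3.25–4.32) and 1.46 (1.30–1.64), *Hsp90b1* of 2.69 (2.49–2.92) and 2.05 (1.91–2.21), and the translocon subunit *Sec61b* of 1.38 (1.29–1.48) and 1.17 (1.1–1.24). Named after their values were seen, *Calr*, the calreticulin of the loading complex, had ratios of 4.78 (4.05–5.67) and 1.33 (1.19–1.5), and *Tapbpl*, a relative of tapasin, of 9.13 (4.96–18.7) and 4.02 (2.59–6.50). The list thus also holds genes of class I loading, and *Tapbpl* is counted among the 5 and among the 2. Helpers and heavy chains were thus both higher in SAA in both classes, and the size of the difference set them apart. The ratios of the helpers were smaller in granulocyte-like than in monocyte-like barcodes, and those of the heavy chains were larger. *Tap2* of the pathway went with the helpers.

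**Figure D5:**
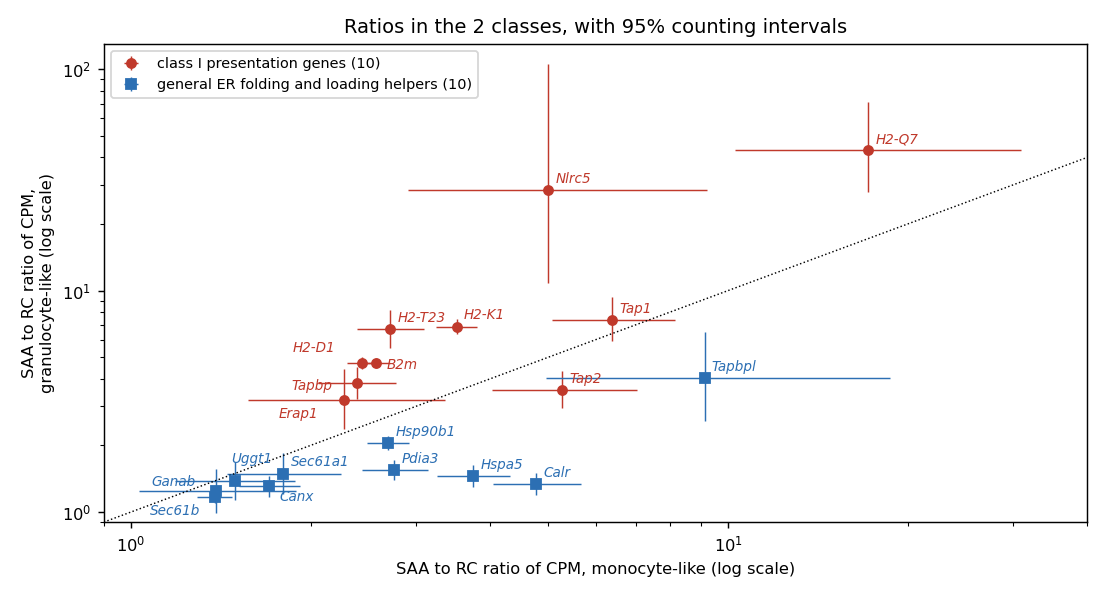
SAA to RC ratio of CPM in monocyte-like (horizontal, log scale) against granulocyte-like barcodes (vertical, log scale) for the 10 class I presentation genes (red circles) and 10 general helpers (blue squares), with 95% counting intervals and the line of equal ratios. Of the 10 presentation genes only *Tap2* lies below the line, whereas each of the 10 helpers does.

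Regulators of class I promoters were uneven. Of 14, 2 were at least 2-fold higher in SAA monocyte-like and 4 in granulocyte-like barcodes, against 7.80% and 6.63% of all genes. In granulocyte-like barcodes 2 were at least 2-fold lower (5.12% of all genes). *Irf1*, a factor that binds interferon response elements, had ratios of 6.45 (4.84–8.76) and 7.66 (5.46–11.0). *Nfkb1* (0.849, 0.708–1.02, and 1.30, 1.06–1.6) and *Irf8* (0.853, 0.741–0.983, and 1.25, 0.821–1.94) stayed under 2-fold. Other granulocyte-like genes past 2-fold, named after their values were seen, were *Irf9* (8.09, 5.22–13.2) and *Stat2* (2.86, 2.11–3.95) on the higher side, and the RFX subunit genes *Rfxap* (0.456, 0.298–0.689) and *Rfxank* (0.455, 0.217–0.923) on the lower side. *Rfx5*, the DNA-binding RFX subunit, was low throughout, with 9 and 15 UMIs in monocyte-like and 10 and 13 in granulocyte-like barcodes.

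Genes lying beside the class I genes differed unevenly. Between *H2-K1* and *H2-T23* on chromosome 17, 105 protein-coding genes outside the pathway and the lists above were followed, class II genes among them. Of these, 59 and 61 had at least 20 UMIs in the monocyte-like and granulocyte-like class. The shares and medians below thus leave out *Psmb8*, *Psmb9* and the *H2-Q* genes, all at least 2-fold higher in SAA in both classes. At least 2-fold higher in SAA were 14 of 59 and 11 of 61, larger shares than the 7.80% and 6.63% over all genes, while the median log2 ratio of these neighbours was 0.29 and 0.17. The 4 with the most UMIs were *Tubb5* (ratios 1.15 and 1.12), *Lst1* (0.596 and 1.11), *Clic1* (1.20 and 1.08) and the class II gene *H2-Aa*. *H2-Aa* stood at 206 and 1468 CPM in monocyte-like barcodes (7.12, 6.30–8.08). In granulocyte-like barcodes it had 0 RC and 209 SAA UMIs, and its SAA level there was 0.0429 (0.0371–0.0494) of the monocyte-like level. The same quotient within SAA was 0.0442 for *H2-Ab1*, 0.0293 for *H2-Eb1* and 0.0421 for *Aif1*. Other neighbours had larger quotients, among them *H2-DMb1* (0.0612), *H2-DMa* (0.0972), *H2-DMb2* (0.180) and *C4b* (0.219), so the fraction was not uniform. Whether the granulocyte-like UMIs of these genes came from free RNA or mixed barcodes was not tested.

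From barcode to barcode within a library and class, UMIs of the 10 genes were only weakly related at equal depth. *H2-K1* and *H2-D1* had a Pearson r between 0.139 and 0.231 over the 4 combinations of library and class (266 to 413 barcodes). The genes most like the sum of *H2-K1* and *H2-D1* were *Lyz2* (r = 0.300), *Selenow*, *Ctss*, *Ccl6* and *Apoe* in RC monocyte-like barcodes, and *Cd74* (0.407), *Ly6i*, *Lst1*, *Aif1* and *H2-Aa* in SAA monocyte-like barcodes. In granulocyte-like barcodes they were 5 ribosomal protein genes in RC, with *Rps26* first (0.319), and *Bst2* (0.249), *Plac8*, *Oasl2*, *Cd24a* and *Pim1* in SAA. The barcodes share 1 library each, and these values are descriptions of sparse counts.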

How the data were processed

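Sorted bone marrow cells of RC and SAA mice were profiled in 2 single-cell 5′ libraries (10x Genomics). The deposited values are raw UMI counts of each gene in each barcode. Per the labels, the authors processed the reads with Cell Ranger 6.0.1 on the mm10 build. Counts are not normalized, and the deposited barcodes include those that the filter of the methods removes. Here barcodes with at least 1000 genes were kept, split by marker UMIs, and summed per library and class. A barcode with equal marker sums entered no class (2 RC and 23 SAA). CPM used all UMIs of the class as denominator. Intervals were exact Poisson for CPM, exact conditional binomial for ratios, exact Clopper-Pearson for shares, and log-scale Poisson for quotients of ratios. Only the intervals of ratios were tried on simulated counts, drawn with the Poisson error that they assume. That trial cannot tell how they hold where counts vary more between barcodes or mice. A gene entered the background with at least 20 UMIs over both libraries. Barcodes were thinned with seed 42 to the 10th percentile of UMIs.

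The text names all 10 genes of the pathway, the 4 genes with the most UMIs of each further list, and the 5 genes with the highest correlation. For 1 gene so chosen no value is reported here. These genes and lists were chosen with earlier results of these data known. Doublets were not called. An alternative left out barcodes whose smaller marker sum exceeded 20% of both sums. Other alternatives changed the cell filter (the study's limit of 25% mitochondrial UMIs, or 1500 genes and 10%), the scaling (TMM of edgeR 4.0.16, the median of ratios, equal weight per barcode, thinning), the minimum of UMIs, the fold, and the barcodes with T cell UMIs. Of the gene identifiers, 30934 matched a GRCm38 annotation (GENCODE), which gave coordinates. Software was Python 3.11.15, numpy 2.4.6, scipy 1.17.1, pandas 2.3.3, matplotlib 3.10.9 and R 4.3.3.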

Additional observations from a re-analysis of the deposited data

Results flagged for a closer look

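*Irf2*, a factor that binds interferon response elements and was named after its values were seen, had an SAA to RC ratio of 0.706 (0.580–0.860) in monocyte-like and of 1.97 (1.51–2.59) in granulocyte-like barcodes. It stood at 149 and 106 CPM, and at 31.5 and 61.8 CPM, in RC and SAA. The 2 classes thus differed in direction, with a quotient of 2.78 (2.01–3.85). The difference between the classes was not tested over mice, because each class came from the same pools.

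Barcodes with under 1000 genes (136 RC and 96 SAA) entered none of the comparisons. In their summed UMIs 10 of 10 pathway genes had an SAA to RC interval above 1, against 12.4% of 2592 genes. *H2-K1* stood at 679.6 and 2058 CPM (3.03, 2.48–3.71), and *H2-Q7* held 2 UMIs in RC and 46 in SAA (36.8, 9.62–313).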

How the results depend on the processing

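No paired analysis was possible because each group had 1 pooled library. The count of pathway genes at least 2-fold higher in SAA was 10 in each class under each of 12 alternatives, and the count of genes with a quotient whose interval lay above 1 was 6 or 7 under 11 alternatives. Some of these alternatives could not change the outcome. The limit of 25% mitochondrial UMIs removed no barcode of either class, and the other minima of UMIs left every ratio as it was. A cut at 1.5-fold is looser than 2-fold and could not lower the count. Of 220 log2 ratios recomputed over 11 settings, those without effect included, 211 stayed inside their counting interval and 9 moved beyond it. Of them 0 changed sign, and the lowest was 1.12. Without the barcodes holding at least 5 UMIs of the T and NK cell list, of which 61 of the RC granulocyte-like ones qualified through *Nkg7*, the granulocyte-like log2 ratios of *H2-K1*, *Tap2* and *Tapbp* were 3.05, 2.26 and 2.31. The nonclassical share of heavy chain UMIs in RC monocyte-like barcodes was 12.04%, and 10.8% under the filter at 1500 genes. Centring on the median gene shifted log2 ratios by 0.06 in monocyte-like and 0.04 in granulocyte-like barcodes. Barcodes with both marker sets numbered 24 RC and 67 SAA in the monocyte-like class, and 10 of 10 genes stayed past 2-fold without them. Counts of at most 20 UMIs (*Nlrc5* and *H2-Q7* in RC) limit the precision of their ratios most, and differences between mice could not be measured.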

Other observations

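Among barcodes with at least 1000 genes, 40 in the SAA library held at least 2 UMIs of T cell receptor genes, against 1 in RC, and 8 further SAA barcodes with such UMIs had fewer genes. The 40 barcodes stood at 1869 CPM for *H2-K1* (1686–2066), 1463 for *H2-D1* (1302–1639), 2446 for *B2m* (2237–2671) and 626 for *H2-Q7* (522–745). Their *H2-Q7* level lay above that of SAA granulocyte-like (347 CPM) and monocyte-like (189.8 CPM) barcodes, while their *H2-D1* level lay below both. Of the 40, 10 belonged to the monocyte-like and 8 to the granulocyte-like class, so the groups compared overlap. No comparison with RC was possible for these barcodes.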
